A study of Mus musculus with 35 samples.

Results

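The regions described here carry acetylation of histone H3 at lysine 27 (H3K27ac) in mouse embryonic stem cells (ESC) and had no H3K27ac peak at any earlier stage of a reprogramming series. Peaks of all 12 H3K27ac libraries on chromosomes 1 to 19 and X were merged where they shared at least 1 bp. A merged region was kept when both ESC libraries had a peak in it and none of the 10 libraries of fibroblasts, day 3, day 6 and day 9 did. This left 23259 of 179334 merged regions (12.97%), which are 47.87% of the 48584 regions with a peak in both ESC libraries. They are called ESC-alone regions below. Their number depends on the lists: it was 4173 with the same number of top peaks from each list, 12074 when peaks up to 1000 bp apart were merged, and 39797 or 40869 when either ESC library was left out. Since they were chosen by the presence and absence of H3K27ac peaks in these lists, their H3K27ac values are a description without a test. The KLF4 lists played no part in the rule, but the set was chosen with earlier results of these data known.

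The starting cells were mouse embryonic fibroblasts (MEF) of a C57BL/6 x 129 background, with a cassette for Pou5f1, Klf4, Sox2 and Myc (OKSM) in the Col1a1 locus and the M2rtTA transactivator in ROSA26. Doxycycline switches the cassette on, and the H3K27ac libraries of MEF are labelled as cells without it. The label of the MEF input, which was not analysed here, names doxycycline. Cells of days 3, 6 and 9 grew in ESC medium with 1000 U/ml LIF, doxycycline (1 µg/ml) and ascorbic acid (50 µg/ml). Day 3 was a whole culture, whereas on days 6 and 9 cells positive for SSEA1, a carbohydrate on pluripotent cells, were isolated by sorting. The ESC were the V6.5 line, grown on irradiated feeder cells with serum and 1000 U/ml LIF. Some KLF4 libraries came from V6.5 cells that also received inhibitors of MEK (1 µM) and GSK3 (3 µM), known as 2i. H3K27ac had 2 libraries of MEF, 3 of day 3, 3 of day 6, 2 of day 9 and 2 of ESC in serum, and KLF4 had 2 each of day 3, day 6, day 9, ESC in serum and ESC in 2i. Nothing in the labels says whether replicates came from separate animals or cultures, so a p-value measures the spread between these libraries. The ESC are a line and not cells that had passed through the series, so line, culture and the end of reprogramming cannot be told apart.

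H3K27ac marks active promoters and enhancers, and enhancers carry it in a cell-type-specific way. In pluripotent cells a small circle of transcription factors, among them POU5F1, SOX2, NANOG, ESRRB and KLF4, binds enhancers of its own genes and of many others. KLF4 is a zinc-finger protein that recognises GC-rich sequence with a core of GGGNGTG. It is supplied by the cassette from the first day of doxycycline, whereas ESC make it from their own gene.

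Most ESC-alone regions lay away from promoters, and a small share lay over one. Genome sequence was not used here, so the sequences shown are RefSeq promoters of GRCm38.p6 (the mm10 build), from 250 bases before to 50 after a start site, whose start site lies in an ESC-alone region. The first 3 belong to genes of the lists used below and had a KLF4 peak in both serum ESC libraries over the region. Capitals mark the KLF4 core GGGNGTG or its reverse complement. Triml2, a gene of the TRIM family used as a marker of pluripotent cells, starts on the plus strand within chr8:43180286-43180585. Dnmt3l, the cofactor of de novo DNA methylation, starts on the plus strand within chr10:78049592-78049891. Tcl1, a coactivator of AKT signalling with a role in ESC self-renewal, starts on the minus strand within chr12:105222688-105222987.
Triml2: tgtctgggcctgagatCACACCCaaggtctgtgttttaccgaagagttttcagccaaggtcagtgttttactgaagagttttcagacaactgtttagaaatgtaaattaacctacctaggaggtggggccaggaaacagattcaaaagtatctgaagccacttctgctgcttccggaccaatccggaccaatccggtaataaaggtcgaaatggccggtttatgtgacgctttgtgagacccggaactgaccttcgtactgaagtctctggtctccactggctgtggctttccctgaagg
Dnmt3l: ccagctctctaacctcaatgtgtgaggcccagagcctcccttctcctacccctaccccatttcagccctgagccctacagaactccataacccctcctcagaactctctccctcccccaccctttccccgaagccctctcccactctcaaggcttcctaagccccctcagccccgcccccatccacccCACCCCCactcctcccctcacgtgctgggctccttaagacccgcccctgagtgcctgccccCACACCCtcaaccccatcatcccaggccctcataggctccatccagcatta
Tcl1: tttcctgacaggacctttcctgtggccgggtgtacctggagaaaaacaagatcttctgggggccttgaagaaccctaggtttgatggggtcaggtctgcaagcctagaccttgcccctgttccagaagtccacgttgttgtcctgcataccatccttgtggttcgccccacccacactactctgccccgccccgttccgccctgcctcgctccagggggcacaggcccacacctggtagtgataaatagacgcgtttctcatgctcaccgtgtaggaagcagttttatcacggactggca

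The next 4 promoters are of zinc-finger genes that sit near each other on chromosome 4, and were chosen after their values were seen, from 10 such genes whose start site lay in an ESC-alone region. They are Zfp980 at chr4:145670447-145670746, Zfp987 at chr4:146097062-146097361 and Zfp600 at chr4:146156577-146156876 on the plus strand, and Zfp534 at chr4:147702582-147702881 on the minus strand. They are shown because the copies resemble each other, and capitals again mark the KLF4 core.
Zfp980: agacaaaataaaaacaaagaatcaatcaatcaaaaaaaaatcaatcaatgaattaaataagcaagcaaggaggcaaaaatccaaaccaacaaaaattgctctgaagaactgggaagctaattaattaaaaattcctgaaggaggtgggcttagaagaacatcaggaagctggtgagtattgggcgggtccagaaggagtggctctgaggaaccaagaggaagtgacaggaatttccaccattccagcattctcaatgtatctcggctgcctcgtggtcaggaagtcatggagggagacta
Zfp987: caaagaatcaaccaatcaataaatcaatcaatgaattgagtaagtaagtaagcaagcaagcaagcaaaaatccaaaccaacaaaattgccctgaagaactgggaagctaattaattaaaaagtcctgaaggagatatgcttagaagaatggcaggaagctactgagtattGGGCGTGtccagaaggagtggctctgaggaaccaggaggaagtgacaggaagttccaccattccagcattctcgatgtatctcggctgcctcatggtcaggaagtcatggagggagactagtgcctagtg
Zfp600: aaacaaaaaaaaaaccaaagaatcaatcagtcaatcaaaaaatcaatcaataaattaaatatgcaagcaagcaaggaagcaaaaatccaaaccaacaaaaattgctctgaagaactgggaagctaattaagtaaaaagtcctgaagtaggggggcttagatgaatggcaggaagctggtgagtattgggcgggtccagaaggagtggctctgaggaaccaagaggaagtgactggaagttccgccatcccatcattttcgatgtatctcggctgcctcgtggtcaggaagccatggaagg
Zfp534: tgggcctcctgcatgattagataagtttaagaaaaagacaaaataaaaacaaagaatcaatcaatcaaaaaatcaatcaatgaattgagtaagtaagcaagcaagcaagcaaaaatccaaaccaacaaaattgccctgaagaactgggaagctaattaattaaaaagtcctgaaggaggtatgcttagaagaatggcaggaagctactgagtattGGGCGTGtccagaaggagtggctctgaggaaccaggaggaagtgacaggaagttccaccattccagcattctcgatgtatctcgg

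The 3 listed promoters differ in base composition. Triml2 has 48% G or C and 9 CpG in 300 bases, Dnmt3l 62.7% and 4 CpG, and Tcl1 56.7% and 11 CpG. The KLF4 core occurs 1 time in Triml2 and 2 times in Dnmt3l, and the letters are not in the Tcl1 window. Over all 299 protein-coding promoters whose start site lay in an ESC-alone region (276 genes), 29.1% held the core on either strand, beside 31.5% of 21045 protein-coding promoters. The median G or C content was 57% against 56.7%, and the median number of CpG per 300 bases 10 against 13. In promoters within regions marked in all 12 libraries these medians were 63.0% and 24 CpG. Promoters within regions of both ESC and both day 9 libraries, without a peak at MEF, day 3 or day 6, had 64% and 20 CpG. Those within regions of both MEF libraries alone had 51% and 6 CpG. The octamer ATGCAAAT, bound by POU5F1 and its relatives, was in 1.34% of the ESC-alone promoters and 1.68% of all. A match describes the letters of a window and is not a binding site.

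ESC-alone regions were narrower than regions that ESC shared with other stages, and weaker than most of them. Their median width was 676 bp, with 90% between 319 and 2116 bp, and they covered 20.5 of the 85.1 Mb of all regions with a peak in both ESC libraries. The authors' fold enrichment, taken here as the highest of any peak in the region, had a median of 4.37 in the first ESC library and 4.07 in the second. Regions with a peak in both ESC and both day 9 libraries and in none of MEF, day 3 and day 6, called ESC-and-day-9 regions (2667), had medians of 5.70 and 5.37 and a width of 1504 bp. Regions of both ESC and both MEF libraries alone (1253) had nearly the same folds, 4.37 and 4.33, and a width of 1421 bp. Regions with a peak in all 12 libraries (8242) had 13.5 and 12.8 and a width of 2654 bp. Widths are those of regions merged over all lists, so peaks from more libraries can widen a region by construction. A wider region can also join more ESC peaks, of which the highest fold was taken. Regions of both MEF libraries alone (31659), which like ESC-alone regions rest on 2 libraries, had a median width of 718 bp. The 2 ESC libraries ranked the ESC-alone regions alike (Spearman's rho 0.714 over 23259 regions, which share both libraries), and 86.6% of regions had folds within 1.5 times of each other.

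The share of ESC regions that were ESC-alone was lower among stronger peaks. Of the regions with a peak in both ESC libraries, split into quartiles by their −log10 p, 69.97% of the weakest quartile were ESC-alone, then 58.7% and 45.9%, and 16.9% of the strongest. The strongest quartile held 2057 ESC-alone regions, and 50.7% of that quartile had a peak in all 12 libraries. The −log10 p of a region is the highest of any ESC peak in it, so regions that join more peaks can rank higher by construction. The part of this in the trend was not tested. A peak must pass the threshold of a list to be in it, and the depth of each library is unknown. H3K27ac lists held between 17493 peaks (a day 6 library) and 88347 (a MEF library), so absence from a list is not absence of the mark.

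**Figure D1:**
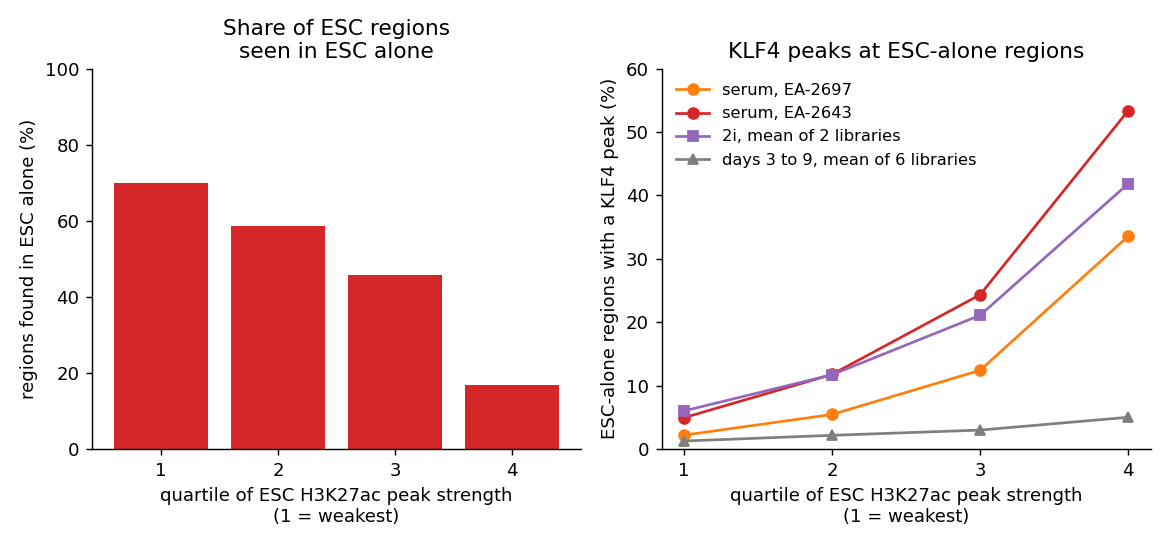
Left, the share of regions with a peak in both ESC libraries that were ESC-alone (%), by quartile of ESC H3K27ac peak strength from the weakest (1) to the strongest (4). Right, the share of ESC-alone regions with a KLF4 peak (%) over the same quartiles; the ESC-alone share goes from 69.97% down to 16.9%, while the KLF4 share in the EA-2643 serum library goes from 4.95% up to 53.4%.

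The edge of the rule was crowded. A further 2699 regions had peaks in both ESC libraries and in 1 of the other 10. Their median folds were 4.70 and 4.40, beside 4.37 and 4.07 over all ESC-alone regions. In 719 and 899 of these 2699 regions the 1 other library was one of the day 9 libraries, where the peak had a median fold of 2.59 and 2.78. A single day 6 library accounted for at most 16. Both ESC libraries and all MEF libraries were of batch DG-3458 and both day 9 libraries of EA-3702, so batch and stage cannot be told apart between ESC and day 9. Another 13397 regions had a peak in the first ESC library and no other of the 12, and 10924 in the second alone, with median folds of 3.04 and 3.07.

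Part of the ESC-alone regions lay near marked chromatin of an earlier stage without touching it. These shares were not counted for other classes of regions, so they have no background. A peak of MEF, day 3, day 6 or day 9 lay within 1 kb of 17.9% of them and within 5 kb of 48.0%. Day 9 peaks were the most frequent neighbours, within 1 kb of 11.3% of regions, and day 6 peaks, from the shortest lists, the least frequent, at 2.42%. On single autosomes 43.3% to 52.1% of the regions with a peak in both ESC libraries were ESC-alone, and on chromosome X 57.7% (761 of 1319).

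KLF4 peaks were several times more frequent at ESC-alone regions in ESC than during reprogramming. At day 3 a KLF4 peak overlapped 2.67% of the regions in the library of batch EA-3702 and 1.74% in that of DG-4040. The day 6 libraries of the same batches had 1.37% and 2.48%, and both day 9 libraries, of EA-3702, had 2.64% and 2.93%. In serum ESC the libraries of EA-2697 and EA-2643 had 8.44% and 15.98%, and in 2i those of EA-3702 and DG-3012 had 12.8% and 16.3%. Every one of the 4 ESC libraries stood above every one of the 6 libraries of days 3 to 9, and the groups did not overlap. The means were 13.4% ± 3.66 in ESC (SD, n = 4) and 2.304% ± 0.612 on days 3 to 9 (SD, n = 6). The difference of 11.1 percentage points was larger than the spread between libraries (exact permutation test, two-sided, p = 0.00476 and, adjusted over 4 tests, 0.019), and no lower p is possible with 210 labelings. It kept its direction without each KLF4 library in turn (10.1 to 12.7 points). With serum ESC alone against the days it was 9.90 points (exact permutation test, p = 0.0357).

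Over all 179334 merged regions the ranges of both groups of libraries overlapped. A KLF4 peak overlapped 9.80% to 14.2% of all merged regions in the 6 libraries of days 3 to 9. In serum ESC it was 8.04% and 12.6%, and in 2i 9.67% and 10.9%. ESC-alone regions were thus below all merged regions in each day library and above them in each ESC library, by the least in the serum library of EA-2697 (8.44% against 8.04%). All merged regions include those without an ESC peak. In each ESC library, ESC-alone regions had a lower share than the other classes with ESC peaks. Regions of ESC and MEF had 15.16% to 26.66%, and ESC-and-day-9 regions 33.07% to 58.16%. Regions of all 12 libraries had 56.22% to 73.93%. These classes are also wider.

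Batches and the stages compared were largely the same split. Only EA-3702 held both days and ESC (in 2i), and there the 2i library had 12.8% against 1.37% to 2.93% in 4 libraries of days. That difference of 10.4 points cannot reach significance with 5 labelings (exact permutation test within the batch, p = 0.2, the smallest possible). The peak names inside the list of that 2i library carry another library name than its label, so it is the library labelled 2i of EA-3702. Without it the difference over all batches was 11.3 points (exact permutation test, p = 0.0119). Serum ESC came from batches with no day library, so batch and stage cannot be told apart for them.

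**Figure D2:**
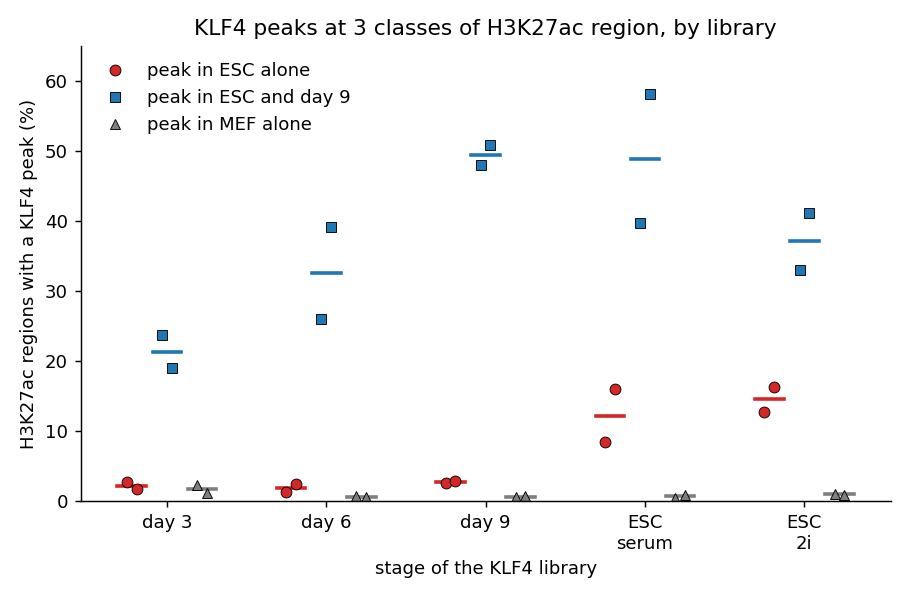
Share of H3K27ac regions overlapped by a KLF4 peak (%), for ESC-alone regions (circles), ESC-and-day-9 regions (squares) and MEF-alone regions (triangles); each point is 1 KLF4 library and each bar the mean of 2. ESC-alone regions lie between 1.37% and 2.93% on days 3 to 9 and between 8.44% and 16.3% in ESC.

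Regions that already had H3K27ac peaks at day 9 had KLF4 peaks more often than ESC-alone regions on every day. KLF4 peaks overlapped 21.3% ± 3.29 of ESC-and-day-9 regions at day 3, 32.6% ± 9.31 at day 6, 49.5% ± 1.99 at day 9, 48.9% ± 13.1 in serum ESC and 37.1% ± 5.75 in 2i (SD, n = 2 each). The mean in ESC was 5.81 times that of the days at ESC-alone regions, 2.63 times at regions of ESC and MEF (8.43% ± 1.93 on days, n = 6, and 22.2% ± 5.27 in ESC, n = 4, SD) and 1.25 times at ESC-and-day-9 regions. With the same number of H3K27ac peaks from each list, ESC-alone regions had KLF4 peaks at 8.58% to 17.2% on the days and 37.9% to 58.0% in ESC, a ratio of means of 3.62. Whether the contrast between ESC-alone and ESC-and-day-9 regions passed a test depended on the scale and on the peaks that entered. In percentage points the ESC-minus-days difference was larger at ESC-alone regions by 2.52 points (exact permutation test, two-sided, p = 0.743 before and after adjustment). With the same number of H3K27ac peaks from each list it was 24.2 points (p = 0.019, exact permutation test), and with serum ESC only or the top 50% of each KLF4 list it turned to −4.54 and −2.69 points. On the log2 ratio of both shares, a scale chosen after the data were seen, the difference was 2.16 (exact permutation test, p = 0.00476). On that scale every ESC library stood above every day library, from −2.23 to −1.34 against −4.25 to −3.15. The classes also differ in width, and a wider region meets more peaks by position alone. Per kb covered, the day libraries had 0.0155 to 0.03325 ESC-alone regions with a KLF4 peak and 0.1005 to 0.2691 ESC-and-day-9 regions. In serum ESC these values were 0.0957 and 0.181 against 0.210 and 0.308, and in 2i 0.145 and 0.185 against 0.175 and 0.218. The difference per kb was not tested.

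Over days 3, 6 and 9 the share at ESC-alone regions changed by 0.0975 points per day, which was not larger than the spread between libraries (exact permutation test with 90 labelings, two-sided, p = 0.378 and, adjusted, 0.743). The slope was −0.0251 when the KLF4 midpoint had to lie in the region and 0.979 with the same number of H3K27ac peaks from each list. The 2i libraries averaged 14.6% ± 2.48 and the serum libraries 12.2% ± 5.33 (SD, n = 2 each). With 2 against 2 the difference of 2.35 points cannot pass the threshold (exact permutation test with 6 labelings, two-sided, p = 0.667 and, adjusted, 0.743, where 0.333 is the least possible). It turned to −3.21 points with the same number of H3K27ac peaks from each list and to −1.42 without the serum library of EA-2697. The serum library of EA-2697 had the lowest share of the 4, and its list of 21129 peaks was the shortest.

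No KLF4 peak of any of the 10 libraries overlapped 16563 ESC-alone regions (71.2%, beside 74.0% of all merged regions). Among regions with a peak in both ESC libraries 44.95% had none. Both serum libraries had a peak at 1615 ESC-alone regions (6.94%). This share was near the 7.26% of all merged regions and below the 23.35% of regions with a peak in both ESC libraries. Both serum libraries and no library of days 3 to 9 had a peak at 1054 (4.53%, beside 1.05% and 3.435% in the same order). The same pattern was found at 4.61% of ESC-and-day-9 regions, 5.67% of regions of ESC and MEF and 0.316% of regions of all 12 libraries, and the differences between these classes were not tested. The 1054 are 65.3% of the 1615, whereas 123 of 1006 such ESC-and-day-9 regions (12.2%) lacked a day peak. The corresponding counts were 71 of 161 at regions of ESC and MEF, and 1886 of 13011 over all merged regions. Over regions with a peak in both ESC libraries they were 1669 of 11342. All 4 ESC libraries met at 880 ESC-alone regions (3.78%, beside 4.68% of all merged regions and 15.85% of regions with a peak in both ESC libraries). Peaks in both serum and all 6 day libraries were found at 34 (0.146%, beside 3.14% and 10.27% in the same order). A peak in at least 2 day libraries and in no ESC library was found at 110 (0.473%, beside 4.90% and 3.194%). Both 2i libraries without a serum library had 420 (1.81%, beside 0.713% and 1.92%). Both serum libraries without a 2i library had 337 (1.45%, beside 1.11% and 2.991%).

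KLF4 overlap was more frequent at stronger H3K27ac regions in ESC. In the serum libraries of EA-2697 and EA-2643 a KLF4 peak overlapped 2.21% and 4.95% of ESC-alone regions in the weakest quartile and 33.6% and 53.4% in the strongest. Over the same quartiles the mean of the day libraries went from 1.28% to 5.03%. ESC-alone regions with a KLF4 peak in both serum libraries had a median width of 1341 bp and folds of 7.36 and 7.04. Those without a KLF4 peak in any ESC library (16937) had 609 bp, 4.04 and 3.79. The median width of ESC-alone regions went from 482 bp to 1736 bp over the same quartiles, and its part in the result was not tested. Within its own list, a KLF4 peak in an ESC-alone region had a median score percentile of 36.2 to 40.4 in the day libraries and 53.5 to 57.7 in the ESC libraries.

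The KLF4 midpoints were fewer at the centres of ESC-alone regions than at some distance from them. The distances compared were chosen after the profile was seen. In serum ESC the number of KLF4 midpoints per 1000 regions and 100 bp was 4.31 and 7.81 within 200 bp of the region's centre, and 11.4 and 21.0 at 300 to 600 bp from it. Farther out, at 1.5 to 2 kb, it was 3.54 and 5.52. In 2i the corresponding values were 6.78 and 10.3 at the centre, 13.5 and 19.2 at 300 to 600 bp and 3.82 and 5.76 farther out. All 4 ESC libraries thus had a shoulder 3.23 to 3.81 times the outer level, and a centre at 0.372 to 0.539 of the shoulder. In the day libraries the shoulder was 1.07 to 1.76 times the outer level, and the centre was at 0.176 to 0.460 of the shoulder, so a dip at the centre was present there as well. Of the ESC-alone regions that a KLF4 peak overlapped in ESC, 48.4% to 59.5% held the peak's midpoint. Other KLF4 midpoints lay outside every merged H3K27ac region but within 500 bp of the edge of an ESC-alone region. Most of these also had a second H3K27ac region within 500 bp on their other side. The share was 78.7% and 75.8% in serum, 70.3% in each 2i library and 67.0% to 76.0% in the day libraries. Counting a region as bound when it holds the midpoint lowered the ESC-minus-days difference to 6.19 points (exact permutation test, p = 0.00476).

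**Figure D3:**
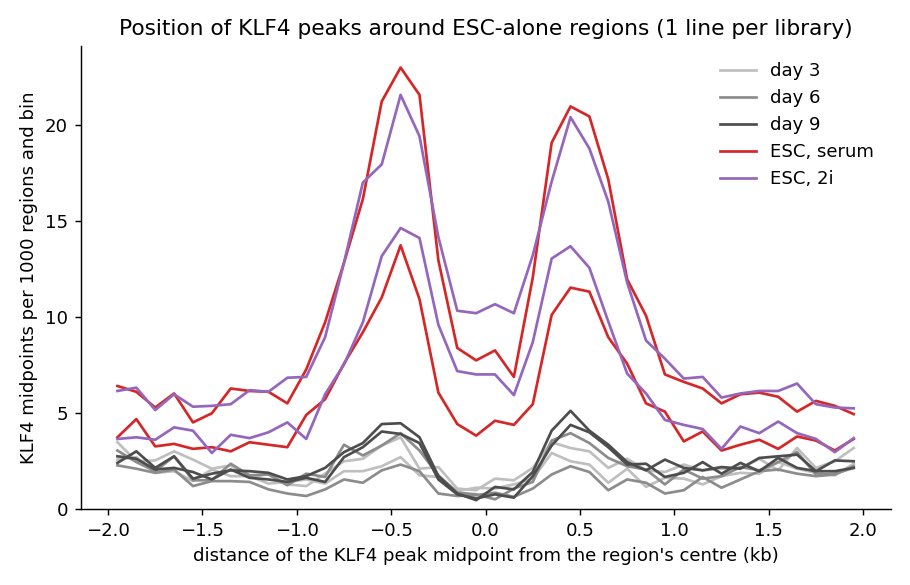
Number of KLF4 peak midpoints per 1000 ESC-alone regions in bins of 100 bp, by distance from the centre of the region (kb), with 1 line per library. The ESC lines have shoulders between 0.3 and 0.6 kb on both sides and a dip at the centre, and the 6 lines of days 3 to 9, at a lower level, dip there too.

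ESC-alone regions were mostly distal. Of the 22571 outside chromosome 18, for which start sites were not used here, 6.68% lay within 2.5 kb of a protein-coding start site and 1.25% over one. The median distance from the centre to the nearest start site was 33.4 kb. Regions of all 12 libraries had 74.3% within 2.5 kb and a median of 477 bp, and ESC-and-day-9 regions had 11.4% within 2.5 kb. MEF-alone regions (peaks of both MEF libraries alone) were farther from start sites than ESC-alone regions, with 3.98% within 2.5 kb and a median of 64994 bp. Gene bodies overlapped 44.3% of ESC-alone regions, 50.3% of ESC-and-day-9 regions, 50.1% of regions of ESC and MEF and 49% of MEF-alone regions. For regions of all 12 libraries the share was 93.7%. Long genes meet more regions: from the shortest to the longest quartile of protein-coding genes, 8.69%, 18.6%, 27% and 45.8% had an ESC-alone region within the gene or 2.5 kb of it.

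Gene lists were read against this background of 25.0% of 21631 protein-coding genes. They had been drawn up with earlier results of these data known, so they describe the regions and support nothing. Of 36 pluripotency genes 27 (75.0%) had an ESC-alone region, although their median length of 9.90 kb was below the 17.3 kb of all genes. An excess was also present for other ESC regions. ESC-and-day-9 regions were at 9 of the 36 (25.0%), beside 6.31% of all protein-coding genes. Any region with a peak in both ESC libraries was at 35 (97.2%), beside 65.6%. Formative and primed epiblast genes, which mark the state after naive pluripotency, had 12 of 17 (70.6%), and the Nodal and Lefty pathway 6 of 10. The LIF, STAT3 and BMP-ID list had 3 of 11 (27.3%) and FGF and ERK feedback 3 of 10, near the background. Germ line genes had 6 of 16, extra-embryonic genes 5 of 12, neural genes 3 of 8, germ layer genes 0 of 7 and 2-cell genes 1 of 11 (Dub1 had no match in the gene table). Housekeeping genes had 3 of 8. Over all lists 71 of 168 genes had an ESC-alone region, or 62 when the gene alone was counted.

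The labelled cell types were checked in the same way. Of 8 ESC markers 6 had an ESC-alone region, and 3 had an ESC-and-day-9 region. All 8 had a region with a peak in both ESC libraries, as did 65.6% of all protein-coding genes and 8 of 8 housekeeping genes. Of 26 fibroblast markers, which feeder cells would also carry, 4 had an ESC-alone region (Fn1, Fbn1, Lum and Zeb1), and 18 had a MEF-alone region, beside 26.2% of all protein-coding genes with a MEF-alone region.

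**Figure D4:**
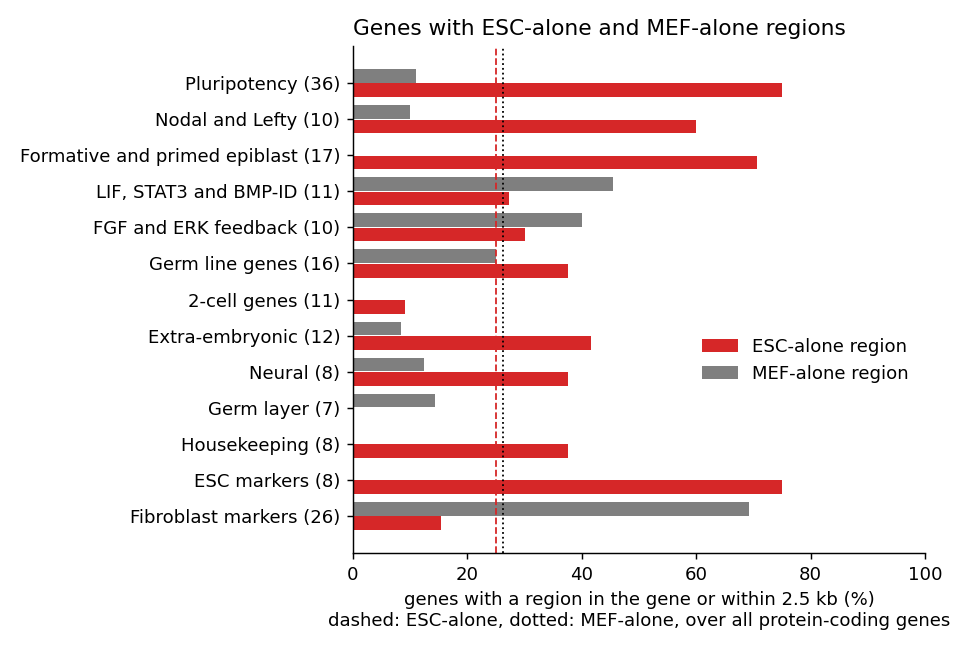
Share of genes of each list (number of genes in brackets) with an ESC-alone or a MEF-alone H3K27ac region in the gene or within 2.5 kb of it (%); lines give the share of all protein-coding genes, 25.0% and 26.2%. Pluripotency genes stand at 75.0% for ESC-alone regions and fibroblast markers at 69.2% for MEF-alone regions.

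Among transcription factors of the naive network, Esrrb, an orphan nuclear receptor that sustains self-renewal, had the most ESC-alone regions of any listed gene, 18. Their folds ran from 2.71 to 30.8 in the first ESC library and from 2.64 to 29.4 in the second. The region at chr12:86500127-86501609, with 30.8 and 26.6, was the one with a KLF4 peak in both serum libraries, and both 2i libraries also had a peak there. The neighbouring region at chr12:86495921-86499697 had folds of 25.7 and 29.4, with KLF4 in 1 serum and both 2i libraries. No KLF4 peak of days 3 to 9 overlapped any of the 18. Tfcp2l1, a factor of the LIF response, had 9 regions, led by chr1:118623237-118625562 with folds of 10.2 and 10.4 and KLF4 in both serum and neither 2i library. Prdm14, which represses differentiation genes, had 5, with folds of up to 11.0 and 8.23 and no KLF4 peak in both serum libraries. Nr5a2, a nuclear receptor that can act upstream of Pou5f1, had 2 with folds of up to 9.02 and 10.9.

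Within 2.5 kb the core genes themselves had few ESC-alone regions. Nanog had 1 at chr6:122712494-122713604 with folds of 4.32 and 3.27, and Sox2 had 1 at chr3:34647297-34647789 with 2.83 and 2.50. Pou5f1 and Klf4, both in the cassette, had none, and each had 2 regions with a peak in both ESC libraries that an earlier stage shared. The other pluripotency genes without an ESC-alone region were Klf2, Fgf4, Utf1, Gbx2, Lin28b, Dppa5a and Dppa3. Within 10 kb the counts were higher for several of these genes: Sox2 had 5, Klf2 4, Nanog, Fgf4 and Dppa3 2 each, and Pou5f1 and Utf1 1 each.

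Other genes of the pluripotency list had strong regions. Dppa2 and Dppa4, neighbouring genes of small chromatin proteins expressed in early embryos, had 6 and 1. At Dppa2 the leading region, chr16:48309112-48312250, had folds of 19.3 and 14.0 with KLF4 in both serum and both 2i libraries, and at Dppa4 chr16:48281514-48285527 had 11.2 and 14.2. Triml2 had folds of 21.6 and 20.3 over its promoter, shown above, with KLF4 in all 4 ESC and no day library. Lin28a, an RNA-binding protein that blocks let-7 maturation, had 2 regions, led by chr4:134009673-134013578 with 14.3 and 14.0. Mybl2, a cell-cycle transcription factor, had 6, led by chr2:163083621-163090921 with 26.0 and 19.3 and KLF4 in 1 serum library. That region also covers the start site of Gtsf1l and lies mostly beyond the end of Mybl2, so it cannot be assigned to either gene. Tcl1 had 1 with 20.3 and 13.7, and KLF4 in all 4 ESC and 3 day libraries.

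Of the 12 formative genes with an ESC-alone region, Otx2, Dnmt3l and Foxd3 had strong ones, and others such as Sall2 (3.70 and 2.38) and Fgf15 (2.88 and 2.94) had weak ones. Otx2, a homeobox factor of the epiblast, had 4 regions, led by chr14:48651106-48657405 with folds of 22.2 and 20.2 and KLF4 in all 4 ESC libraries and in no day library. The others at Otx2 had folds of 11.7 and 11.1, 9.30 and 7.70, and 4.67 and 3.45. Dnmt3l had 6, and the region over its promoter, chr10:78046024-78051521, had 16.9 and 17.6. KLF4 peaks lay there in all 4 ESC libraries and in 5 of 6 day libraries. Foxd3, a forkhead factor of the epiblast, had 3, with up to 16.2 and 14.5. Among ligands and receptors of the signalling lists, Nodal had 3 with up to 5.29 and 4.07, Lefty1 had 2 with up to 5.59 and 3.21 and KLF4 on a day at both, and Lifr, the receptor of LIF, had 6 with up to 5.70 and 5.49. Il6st, the signalling partner of Lifr, reached 7.18 and 8.15, and Bmpr1a, a receptor of BMP, 8.16 and 6.28.

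**Figure D5:**
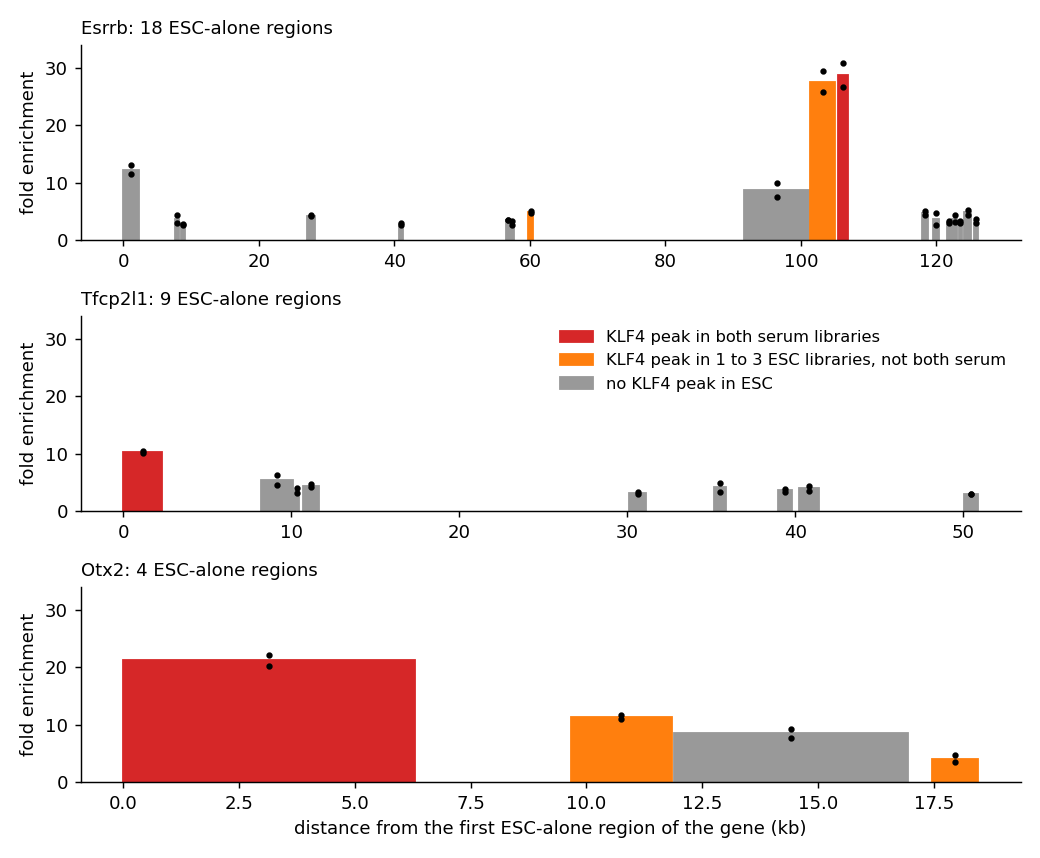
ESC-alone regions at Esrrb, Tfcp2l1 and Otx2, by distance from the first region of each gene (kb); the height of a bar is the mean deposited fold enrichment of both ESC libraries, points are the 2 libraries, and the colour gives KLF4 peaks in ESC. At Esrrb 2 adjoining regions have folds of 25.7 or more in both libraries and the other 16 stay at or below 13.01.

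Of the listed genes 119 had a start site in the sequence table, and 10 of them (8.40%) had it in an ESC-alone region, beside 1.60% of all protein-coding genes with a start site there. They were Ddx4, Dnmt3l, Etv1, Foxd3, Hormad1, Lef1, Otx2, Stk31, Tcl1 and Triml2. Ddx4, Stk31 and Hormad1 are germ line genes, with folds nearer the median of the set. Ddx4, an RNA helicase of germ cells, had 4.04 and 5.12 with KLF4 in all 4 ESC libraries. Stk31, a kinase-like protein of germ cells, had 6.36 and 5.77 with KLF4 in 1 serum and 1 2i library. Hormad1, a protein of meiotic chromosome axes, had 3.47 and 4.00 with no KLF4 peak in ESC.

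The start sites in the best ranked regions belonged to other genes, named after their values were seen. Jade1, a subunit of a histone acetyltransferase complex, led with folds of 29.8 and 25.8 and KLF4 in all 4 ESC and no day library. After it came zinc-finger genes of chromosome 4. Of 20 Zfp genes with a start site on that chromosome 10 had it in an ESC-alone region, against 4 of 285 on the others. Within 2.5 kb of the gene the contrast was smaller, with an ESC-alone region at 12 of 20 against 94 of 285. The 10 are Zfp980, Zfp987, Zfp600, Zfp993, Zfp981, Zfp988, Zfp982, Zfp985, Zfp979 and Zfp534, within 2.03 Mb at chr4:145670697-147702631. That stretch held 72 ESC-alone regions, 19 with KLF4 in both serum libraries and 3 with KLF4 on any of days 3 to 9, beside 6.94% and 6.63% of all ESC-alone regions. The median folds of the 72 were 6.405 and 5.815, beside 4.37 and 4.07 over all ESC-alone regions. KLF4 peaks in ESC were more frequent at stronger regions in any case.

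At the promoters shown above, Zfp980 had folds of 18.4 and 21.3, Zfp987 15.0 and 15.7, Zfp534 16.5 and 16.6, and Zfp600 13.6 and 13.2. KLF4 peaks were in both serum libraries at the first 3 of these and in both 2i libraries but no serum library at Zfp600. The KLF4 core occurs 1 time in the windows of Zfp987 and of Zfp534 and its letters are not in those of Zfp980 and Zfp600. Aligned over 300 bases, the 10 promoters were 52.7% to 96.7% identical in 45 pairs (median 82.3%), while 265 pairs of neighbouring promoters of the other genes in the set had a median of 58.0%. Zfp600 and Zfp979 were 96.7% identical. Reads from such copies can be placed at the wrong one, and how reads with several matches were handled is not given in the sources used here. Which copy carries the mark or a KLF4 peak is therefore uncertain.

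The 10 ESC-alone regions of best mean rank in both ESC libraries were 2494 to 11518 bp wide, with folds of 21.9 to 41.7 in the first and 20.3 to 37.2 in the second library. KLF4 peaks lay in both serum libraries at 7 of them, in at least 1 ESC library at all 10 and in a day library at 2. Over all ESC-alone regions 6.94% had KLF4 in both serum libraries and 6.63% in a day library, and 16937 of 23259 had none in ESC. The 10 are among the strongest regions, where KLF4 peaks were more frequent in any case. The first, chr17:17192695-17201531, overlapped the gene Gm38396 with folds of 41.7 and 37.2 and had KLF4 in all 4 ESC libraries. The second, chr4:145867982-145872932, lay in the zinc-finger stretch, 163.5 kb from Zfp980. The third, chr6:65024869-65028883, with 40.6 and 36.4 and KLF4 in all 4 ESC libraries, was 13.7 kb from Smarcad1, a chromatin remodeller. The fourth, chr11:88969776-88972269, was 1.665 kb from Coil, the gene of the Cajal body protein coilin, with 21.9 and 20.3 and KLF4 in 1 ESC library. The seventh, chr6:82693924-82703972, lay 21.05 kb from Hk2, a hexokinase, with 28.4 and 24.5 and KLF4 in all 4 ESC libraries. The eighth, chr2:71346617-71358134, overlapped Slc25a12, a mitochondrial carrier, with 28.1 and 26.6 and KLF4 in 1 library, of 2i.

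Part of the ESC-alone regions came in runs. Joined over gaps of at most 12.5 kb, ESC-alone regions formed 12571 runs, of which 7513 held 1 region (32.3% of regions) and 724 held 5 or more (21.3%). Runs of other classes were not counted, so these shares have no background. The longest run held 29 regions over 145.9 kb at chr5:119578416-119724294 and contained Tbx3, a T-box factor of the naive network. Its folds ran from 2.304 to 22.3 in the first ESC library and from 2.38 to 22.1 in the second, with medians of 5.03 and 4.64, and KLF4 lay in both serum libraries at 3 of the 29. The next held 23 regions over 128.0 kb at chr15:79843629-79971644, with Apobec3, a cytidine deaminase that restricts retroviruses, and Cbx7, a Polycomb protein of ESC. KLF4 lay there in both serum libraries at 1 region and on no day at any. A run of 20 regions at chr12:105053678-105113105, with folds of up to 28.0 and 21.9, contained no protein-coding gene and ended 33.9 kb before Tcl1b2. A run of 17 regions on chromosome X, chrX:50550057-50620047, also without a protein-coding gene, had folds of at most 9.02 and 7.75, and no region with KLF4 in both serum libraries or on any day.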

How the data were processed

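Each of the 12 H3K27ac and 10 KLF4 ChIP-seq libraries had its own deposited peak list, so peaks were called per library. The submitters' processing notes name cutadapt 1.8.1, Bowtie2 2.2.5, deepTools 2.3.6, MACS2 2.1.1 and mm10, without settings. The deposited columns used hold, per peak, the authors' score, fold enrichment (a ratio over background) and −log10 of the p-value and q-value. Read depth is unknown, so the precision of a share rests on the spread between libraries. The 13 input libraries were not analysed here.

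Members and lists were chosen with earlier results of these data known. Overlap needed 1 bp. KLF4 shares per library were compared with two-sided exact permutation tests, adjusted over 4 tests by Benjamini-Hochberg, threshold 0.05. Named were the 10 regions of best mean rank by score, listed genes with a region within 2.5 kb, and promoters whose start site lies in such a region; exceptions are stated. Genes and sequences came from RefSeq tables of GRCm38.p6. Alternatives were other peak thresholds, equal list lengths, a merge gap, midpoint overlap, single batches and left-out libraries.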

Additional observations from a re-analysis of the deposited data

How the results depend on the processing

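Of 76 alternatives over all results, 56 kept the direction and the side of the threshold, or stayed within the margin for a count. The number of ESC-alone regions, 23259, depended most on how peaks entered: 15330 with q of at most 0.01, 12615 with the top 50% of each list, 4173 with the same number of peaks (17493) per list, and 12074 with a merge gap of 1000 bp. Leaving out 1 library gave 23262 to 40869, the 2 highest, 39797 and 40869, without either ESC library. The ESC-minus-days KLF4 difference of 11.1 points was 10.4 within batch EA-3702 (exact permutation test, p = 0.2) and 10.1 to 12.73 with 1 library left out. It stayed between 6.19 and 33.55 points under all 17 alternatives. Its excess over ESC-and-day-9 regions, 2.52 points, was −2.69 with the top 50% of each KLF4 list, −2.24 with midpoints and −4.54 with serum ESC only. It was 24.2 with equal H3K27ac lists (exact permutation test, p = 0.019) and 2.16 on the log2 ratio, and 14.5 within batch EA-3702 (exact permutation test, p = 0.6). It was −0.634 to 6.70 with 1 library left out, negative without either day 9 library (−0.130 and −0.634) or the 2i library of EA-3702 (−0.603). The slope over days, 0.0975 points, was −0.0251 with midpoints, 0.979 with equal H3K27ac lists (exact permutation test, p = 0.111) and 0.0496 to 0.191 with 1 library left out. The 2i-minus-serum difference was −3.21 with equal H3K27ac lists and −1.42 to 6.12 with 1 library left out, negative without the serum library of EA-2697 (−1.42). The share of regions near a start site, 6.68%, was 3.01% within 1000 bp and 23.5% within 10000 bp. The causes of these changes were not tested, apart from the fewer peaks or wider windows that the settings themselves make. The replicate labels pair day 3 with day 6 by batch (EA-3702 and DG-4040). With this replicate block the slope over days was 0.0895 (exact permutation test over 24 labelings, p = 0.667), and the call did not change; other groups compared share fewer than 2 batches.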

Other observations

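Of 1005 RefSeq microRNA hairpins 11 (1.10%) overlapped an ESC-alone region. The region over Mir3063, chr11:95962103-95963397, had folds of 7.18 and 7.41, and that over Mir142, chr11:87755160-87757252, had 6.76 and 6.08. The region over Mir182, chr6:30165254-30166520, had 5.03 and 3.51, and that over Mir181d, chr8:84178705-84179107, had 2.96 and 3.53. No KLF4 peak of a serum ESC library lay at these 4 regions. The region over Mir6405, chr19:44807874-44808882, had 4.70 and 5.20, with KLF4 in both serum libraries. The mature sequences of the better known of these miRNAs are shown from RefSeq with the seed (bases 2 to 8) in capitals, and the 3 seeds differ.
miR-142a-3p: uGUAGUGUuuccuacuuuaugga
miR-182-5p: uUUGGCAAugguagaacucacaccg
miR-181d-5p: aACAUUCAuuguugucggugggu

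Long non-coding RNA genes had their start site in an ESC-alone region in 206 of 9520 cases (2.16%), and protein-coding genes in 276 of 17274 (1.60%). Some genes outside the lists, chosen after their values were seen, held many regions: Etl4 had 37 over 900.3 kb, Grik3 22 over 223.9 kb, Crtac1 20 over 149.9 kb and Ppp2r2c 19 over 88.2 kb, beside 18 over 160.5 kb at Esrrb.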
